A study of Pimephales promelas with 15 samples.

Results

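Whole larvae of the fathead minnow (Pimephales promelas), a small freshwater fish used in toxicity testing, were compared at 4 days post-hatch after exposure to 20 ng/L of 17α-ethinylestradiol (EE2) or to solvent. EE2 is the synthetic estrogen of oral contraceptives. The samples were chosen by their labelled exposure: 5 libraries at a nominal 20 ng/L EE2 and 5 libraries of a solvent control in 0.01% DMSO, which are 10 of the 15 libraries of the series. The other 5 libraries, at 100 ng/L EE2, entered the statistical fit, where they help to estimate the spread, and are otherwise given only beside values at 20 ng/L. Exposure began before 6 hours post-fertilization in both groups and ended 96 hours after hatching, in petri dishes with static renewal of the water. Each library is a pool of whole animals, and the labels give neither the number of larvae in a pool nor whether the pools of a group came from separate dishes. Whether the EE2 water also held DMSO is not stated in its labels, so solvent matching cannot be read from them. No genotype, strain or sex is labelled.

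Estrogens act in fish mainly through nuclear estrogen receptors, which bind the hormone and switch on transcription of their target genes. The best known target in egg-laying vertebrates is vitellogenin, the yolk precursor made in the liver, which is normally a product of maturing females but is also made by males and juveniles exposed to estrogen. Brain aromatase, the enzyme that makes estradiol from testosterone in radial glia, and the egg envelope proteins made in fish liver are other known targets. None of these can be pointed to here, because the deposited IDs carry no gene names: 0 of 26150 matched the 64593 genes of the reference table. The same holds for markers of liver, brain or any other tissue, so the labelled tissue could not be checked against them. IDs are therefore given as deposited, or by their prefix, the meaning of which is not given in the files.

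Total counts were 55108019 ± 16982039 at 20 ng/L and 47572371 ± 9559353 in solvent (SD, n = 5 each). They ran between 37100443 and 73989987 at 20 ng/L and between 35585040 and 55722278 in solvent. Of the 26150 IDs, 21976 had enough counts to be tested, and the 4174 others held 1 ID with counts in every 20 ng/L library and no solvent library (at most 5 counts) and 1 with the opposite pattern (at most 13 counts). Solvent library 1 stood apart from its group: its root-mean-square deviation from the group mean was 0.652 on the log2 CPM scale (CPM are counts scaled to a common library size, after a correction for library composition), against 0.416 to 0.485 in the other solvent libraries and 0.368 to 0.494 at 20 ng/L. The number of IDs that passed the test, the median spread between libraries and the number of IDs without overlap between groups are given with and without it. Most other values include it.

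The question put to these 10 libraries was which transcripts of the larva respond to the lower concentration. Few IDs passed the test, and nearly all of those had a large change. At an edgeR quasi-likelihood adjusted p below 0.05, 11 IDs rose, which is 0.0501% of all tested IDs, and 0 fell. For 10 of the 11 the fold change lay between 16.7 and 357, and for the last it was 2.32. They shared 5 prefixes: 3 scaf36 IDs, 5 scaf140 IDs and 1 ID each of scaf62, scaf15 and scaf14. In every one of the 11, all 5 libraries at 20 ng/L lay above all 5 solvent libraries, which held for 29 tested IDs in all (0.132%). The 11 were called from these same libraries, so this separation adds no support to the calls. In whole larvae, a change in the number of cells that carry a transcript and a change in its amount per cell cannot be told apart. The 11 IDs together took 0.104% ± 0.0829 of all counts at 20 ng/L and 0.00530% ± 0.000647 in solvent (SD, n = 5 each).

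**Figure D1:**
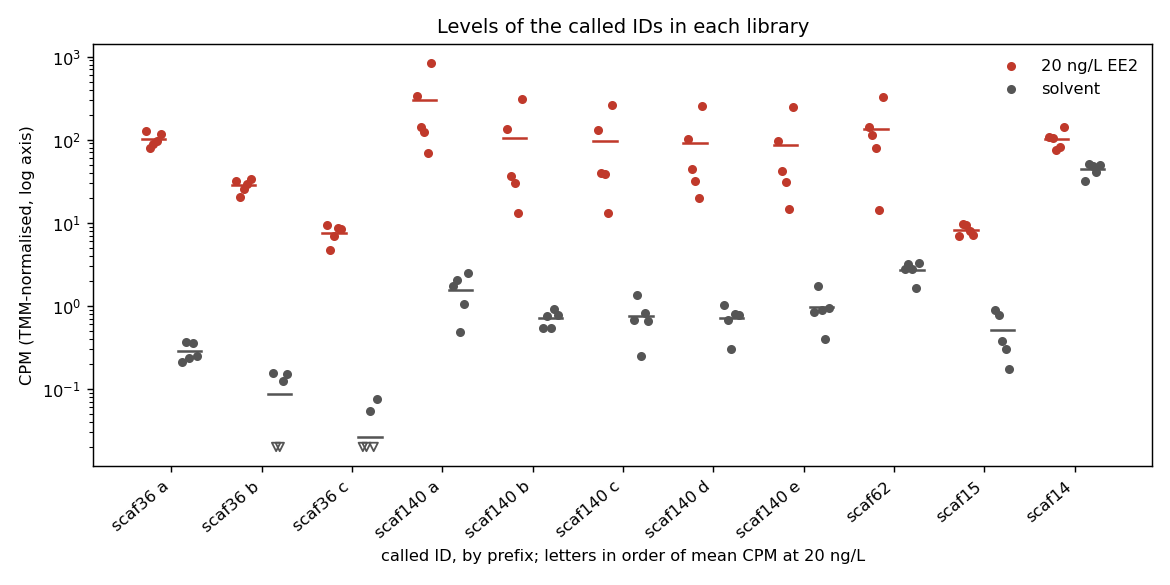
CPM of the 11 called IDs in each library on a log axis, with 20 ng/L EE2 (red) left of solvent (grey). Points are libraries, bars are group means and open triangles are libraries with 0 counts. The 20 ng/L points lie above the solvent points for every ID, close together for scaf36, scaf15 and scaf14 and widely spread for scaf140 and scaf62.

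The 3 scaf36 IDs had next to no signal in solvent and a level at 20 ng/L that was much alike in every exposed pool. The one with the most counts, scaf36.44, had 128, 79.0, 89.0, 97.1 and 117 CPM in replicates 1 to 5 at 20 ng/L, against 0.208, 0.365, 0.234, 0.360 and 0.249 CPM in solvent. Its lowest library at 20 ng/L was 217 times its highest solvent library. The mean was 102 ± 20.2 CPM at 20 ng/L and 0.283 ± 0.0739 CPM in solvent (SD, n = 5 each), a log2 fold change of 8.48 (95% interval 8.04 to 8.92, SE 0.21, edgeR adjusted p = 1.03e-12). In raw counts this ID had at least 3225 in each 20 ng/L library and at most 20 in any solvent library. Depth therefore did not limit its detection under exposure, whereas its solvent level rests on few counts.

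The second scaf36 ID had between 20.6 and 33.9 CPM at 20 ng/L and between 0 and 0.156 CPM in solvent, with no counts in 2 solvent libraries. Its fold change was 314 (95% interval 171 to 575, edgeR adjusted p = 2.02e-08). The third had between 4.66 and 9.29 CPM at 20 ng/L and between 0 and 0.0765 CPM in solvent, where 3 libraries had no counts and the group had 7 in all. Its fold change of 241 (95% interval 116 to 502, edgeR adjusted p = 4.46e-07) became 411 without solvent replicate 5, so its size is set by very few solvent counts. Across the 20 ng/L libraries the coefficient of variation of the 3 IDs was 18.6% to 24.6%. Their proportions hardly moved between exposed pools, with scaf36.44 holding between 72.0% and 75.8% of the counts of the set. IDs with neighbouring numbers can be parts of 1 gene model or copies that share reads, so the 3 values may not be independent.

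The 5 scaf140 IDs also rose in every pool, but to levels that differed more than 10-fold between pools. The one with the most counts, scaf140.3, had 333, 143, 124, 70.0 and 832 CPM in replicates 1 to 5 at 20 ng/L, against 1.74, 2.06, 0.486, 1.04 and 2.45 CPM in solvent. Replicate 5 was the highest and replicate 4 the lowest at 20 ng/L, a ratio of 11.9, and even replicate 4 was 28.6 times the highest solvent library. The mean was 300.5 ± 313 CPM at 20 ng/L and 1.56 ± 0.789 CPM in solvent (SD, n = 5 each). The log2 fold change was 7.60 (95% interval 6.07 to 9.14, SE 0.72, edgeR adjusted p = 8.95e-05), that is 194-fold. It was 108-fold with replicate 5 of 20 ng/L left out. For the other 4 IDs of the set the fold change lay between 90.3 and 147, or between 48.0 and 75.4 without that library.

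The proportions of the 5 scaf140 IDs shifted between exposed pools, by less than their level did. The share of scaf140.3 in the counts of the set was 41.9%, 46.8%, 48.5%, 53.6% and 43.7% in replicates 1 to 5 at 20 ng/L. It was largest in replicate 4, where the set was lowest, and smallest in replicate 1. The shares of 2 other IDs of the set ran the other way, from 10.2% in replicate 4 to 16.8% in replicate 1 and from 9.91% in replicate 4 to 16.6% in replicate 1. In solvent the share of scaf140.3 ranged from 19.6% to 43.8%, where the whole set had few counts. The set took 0.0816%, 0.0298%, 0.0253%, 0.0139% and 0.180% of all counts in replicates 1 to 5 at 20 ng/L, and 0.000248% to 0.000651% in solvent. The calls of this set depend on how the spread is modelled: by limma-voom 4 of its 5 IDs were not called (adjusted p of at least 0.172), while scaf140.3 was (0.00171). Likewise, with the replicate number as a block and only the 2 groups in the fit 2 of the 5 were not (edgeR adjusted p = 0.311 for both).

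The single scaf62 ID resembled the scaf140 set. It had 143, 112, 79.2, 14.2 and 327 CPM in replicates 1 to 5 at 20 ng/L, against 2.76, 3.18, 2.75, 1.64 and 3.27 CPM in solvent. Replicate 4 was again the lowest and replicate 5 the highest, and the groups did not overlap, by a factor of 4.34 at their closest. Its fold change was 49.8 (95% interval 18.8 to 132, edgeR adjusted p = 7.09e-04), or 32.1 with replicate 5 of 20 ng/L left out, and it was not called by limma-voom (adjusted p = 0.0999).

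The scaf15 ID rose from a low solvent level to an even level at 20 ng/L, like the scaf36 set. It had 6.95, 9.61, 9.37, 7.94 and 7.08 CPM in replicates 1 to 5 at 20 ng/L, against 0.884, 0.782, 0.378, 0.306 and 0.172 CPM in solvent. Its fold change was 16.7 (95% interval 10.4 to 26.7, edgeR adjusted p = 7.68e-06). The coefficient of variation was 15.3% at 20 ng/L and 61.7% in solvent, where the largest count in a library was 34. The solvent level fell steadily from replicate 1 to replicate 5, so the rise over same-numbered solvent libraries was not even.

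The scaf14 ID had the smallest rise of the 11. It had 108, 104, 75.6, 82.0 and 143 CPM in replicates 1 to 5 at 20 ng/L, against 32.1, 50.9, 47.9, 41.3 and 49.0 CPM in solvent. Every exposed library was above every solvent library, by a factor of 1.48 at the closest. The fold change was 2.32 (95% interval 1.79 to 2.99, edgeR adjusted p = 0.00782). The call held by limma-voom (adjusted p = 0.0141). It was not made by edgeR with only the 2 groups in the fit (adjusted p = 0.0750), with the replicate block added to that (0.311), or without the libraries numbered 1 (0.104).

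Across the exposed pools the called IDs fell into 2 patterns by the size of their range between libraries. In the 5 scaf140 IDs and the scaf62 ID the order of the libraries was the same, with replicate 5 highest, then replicates 1, 2, 3 and 4. In all, 157 of the 21976 tested IDs (0.714%) had this order, which was taken from scaf140.3. A range between libraries of more than 5-fold was found in 1124 tested IDs. Of these, 17 had this order, among them these 6 called IDs. The called scaf140 IDs have close numbers, like the scaf36 IDs, so their values may not be independent. In these 6 the highest library was 11.9 to 23.5 times the lowest, where the median over all tested IDs was 1.5. The other 5 called IDs had ratios of 1.38 to 1.99, and none had exactly this order. The scaf14 ID came near it, with replicate 5 highest, then replicates 1, 2, 4 and 3. In each scaf36 ID replicate 2 was the lowest and replicate 3 the next lowest, and in scaf36.44 replicates 1 and 5 were the highest. In the scaf15 ID replicate 2 was the highest. Replicate 4, with the least scaf140 signal, lay within the range of the other exposed pools for scaf36.44 (97.1 CPM) and the scaf15 ID (7.94 CPM). Replicates 2 and 3, also low in scaf140, had 79.0 and 89.0 CPM of scaf36.44. The patterns were read from the values and not tested.

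**Figure D2:**
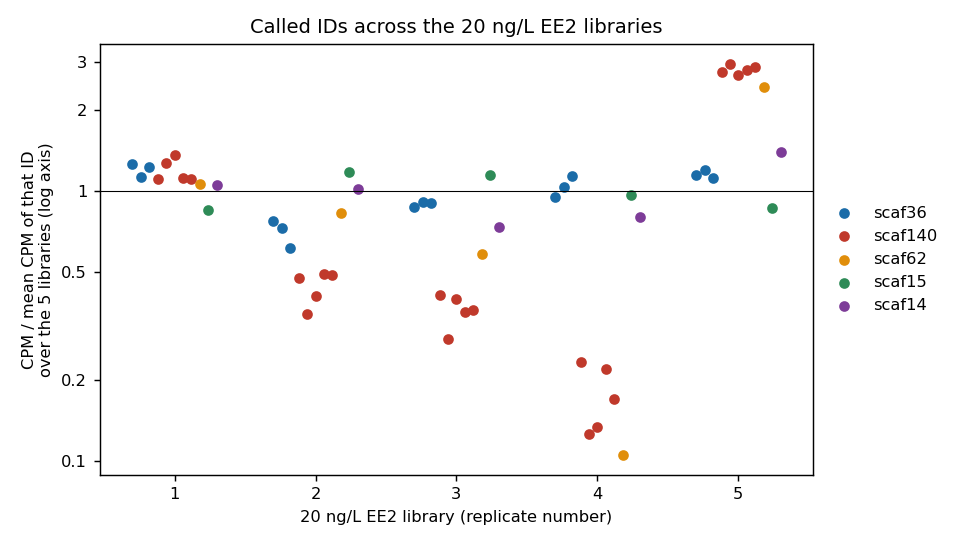
CPM of each called ID in the 5 libraries at 20 ng/L EE2, divided by the mean of that ID over these libraries (log axis), coloured by prefix. The scaf140 and scaf62 points lie above 2 in library 5 and below 0.3 in library 4, while the scaf36, scaf15 and scaf14 points stay between about 0.5 and 2 in every library.

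At 100 ng/L the solvent libraries are shared, so the levels are only set side by side. The scaf15 ID had 8.19 ± 1.25 CPM at 20 ng/L, 8.04 ± 0.202 CPM at 100 ng/L and 0.504 ± 0.311 CPM in solvent, and the scaf14 ID had 102.5 ± 26.5, 125.7 ± 18.4 and 44.2 ± 7.69 CPM in the same order (SD, n = 5 each). The scaf62 ID had 135 ± 118 CPM at 20 ng/L, 765 ± 336 CPM at 100 ng/L and 2.72 ± 0.650 CPM in solvent (SD, n = 5 each). In every called scaf140 ID and the scaf62 ID the library numbered 4 was also the lowest at 100 ng/L. It had 2604 CPM of scaf140.3 where the others had at least 3028. For the scaf62 ID it had 324 CPM where the others had at least 654. Library 5, the highest at 20 ng/L, was not the highest of scaf140.3 or the scaf62 ID at 100 ng/L. It had 3285 CPM of scaf140.3, against 4304 CPM in library 1. Of the scaf62 ID it had 654 CPM, against 1257 CPM in library 2. Among the other called scaf140 IDs, library 5 was the highest at 100 ng/L in some, with 2784 and 3621 CPM. In the rest library 2 was the highest. The full order at 20 ng/L did not recur at 100 ng/L in any called scaf140 ID or in the scaf62 ID. In the scaf14 ID library 4 was the lowest at 100 ng/L too, with 100.3 CPM, though replicate 3 was lowest at 20 ng/L.

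Other IDs of the same prefixes showed no such rise. Of 26 tested scaf140 IDs, the 21 that were not called had log2 fold changes between -0.51 and 0.35, with a median of 0.02. Of 132 tested scaf36 IDs, the 129 others lay between -0.54 and 0.89, with a median of -0.01. The uncalled IDs of the other prefixes had wider ranges on the negative side. They lay between -1.25 and 0.55 for scaf62, -1.03 and 0.86 for scaf15, and -3.16 and 0.57 for scaf14. Over all 5 prefixes, 17 tested but uncalled IDs had a number within 3 of a called one. Their log2 fold changes lay between -0.31 and 0.32. Numbers near a called ID for which no ID was tested are not covered. The files do not state that consecutive numbers are neighbours in the genome.

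No ID fell at this concentration by the same test. At an unadjusted p below 0.05, 62 fell and 79 rose (141 in all, 0.642% of those tested, or 276 in all with the replicate block). With no change in any ID a share of 0.05 would be expected to pass, and both counts are below that. Why so few passed was not tested, and these counts are not read as a weak response. Of the negative changes, the one nearest to a call was scaf22.146. It had 0.446, 0.711, 0.495, 0.520 and 0.722 CPM in replicates 1 to 5 at 20 ng/L, against 68.5, 71.2, 0.306, 64.6 and 47.7 CPM in solvent. All exposed pools and solvent replicate 3 were near zero while 4 solvent pools were high, so the groups overlapped. The log2 fold change was -6.43 (SE 1.10, edgeR adjusted p = 0.0552). It passed the threshold without solvent replicate 3 (adjusted p = 5.91e-04), with DESeq2 (1.30e-08) and with non-robust estimation (0.0480), and with the replicate block it had 0.393. At 100 ng/L the level was 0.231 to 5.71 CPM.

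The next negative ID, scaf10.486, had a small difference. It had 30.1, 36.9, 35.1, 30.6 and 29.3 CPM in replicates 1 to 5 at 20 ng/L, against 45.8, 34.4, 50.8, 44.0 and 45.9 CPM in solvent. The groups overlapped through solvent replicate 2, which lay below exposed replicates 2 and 3. The log2 fold change was -0.45 (SE 0.10, edgeR adjusted p = 0.880). At 100 ng/L it had 47.1 to 57.2 CPM, above all of the 20 ng/L libraries.

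Of the positive changes short of a call, the nearest was a scaf178 ID, picked out after its values were seen. It had 1.73, 0.613, 0.594, 0.431 and 3.98 CPM in replicates 1 to 5 at 20 ng/L, against 0.198 CPM in solvent replicate 4, from 11 counts, and no counts in the other solvent libraries. Its libraries stood in the same order as those of the scaf140 set, with replicate 5 highest and replicate 4 lowest. The edgeR adjusted p was 0.0747, and the ID was called without replicate 4 of 20 ng/L and by DESeq2. DESeq2 called 15 IDs, 14 that rose and 1 that fell. They were the 11, this scaf178 ID, 2 scaf4 IDs and scaf22.146.

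Over all tested IDs the changes were small and lay on both sides of zero. The median log2 fold change was -0.01, with 10018 IDs above zero and 11958 below, and the middle 90% lay between -0.30 and 0.28. The width depended on the level. For the 2641 IDs with a mean below 0 on the log2 CPM scale the middle 90% ran from -0.66 to 0.64 and the median SE was 0.49. For the 2479 IDs at 6 or above it ran from -0.15 to 0.16, with a median SE of 0.13. For most IDs the data left room for small changes only. The 95% interval of the fold change, unadjusted for the number of IDs, lay wholly within 2-fold for 18574 of 21976 (84.5%). That share was 23.7% for the IDs below 0 and 96.5% for those at 6 or above. For weakly expressed IDs the interval thus often left room for a change of 2-fold. These intervals do not show that a 2-fold change would have been called, at any level. A scaf4 ID with a log2 fold change of 1.01 (SE 0.21) was not called by edgeR (adjusted p = 0.354).

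**Figure D3:**
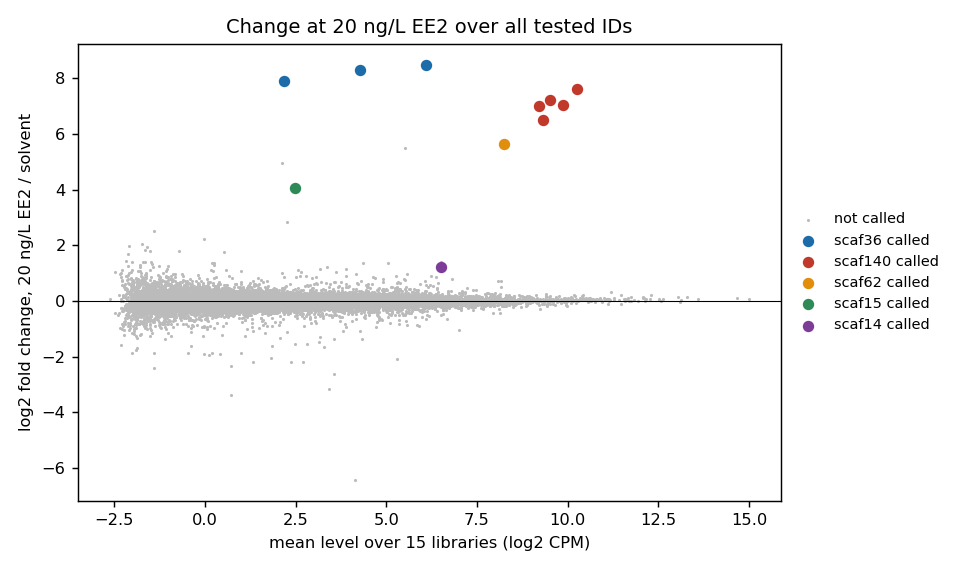
Log2 fold change of 20 ng/L EE2 over solvent against mean level (log2 CPM over 15 libraries) for all 21976 tested IDs. Called IDs are coloured by prefix and the others are grey. Most grey points lie within 1 unit of zero and the cloud narrows as the level increases, while 10 of the 11 called IDs lie above 4.

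Beyond 2-fold in the fitted change lay 129 IDs (0.587%), the 11 called ones and 118 others. Of the 118, 55 were higher and 63 lower at 20 ng/L. Most of them differed between pools of the same group: the SD between libraries was above 1 on the log2 scale for 94, with a median of 1.3 over the 118 and 0.300 over all tested IDs. In 114 of the 118 the groups overlapped, and 28 had an unadjusted p below 0.05. The largest positive one, a scaf2 ID with a log2 fold change of 5.49, had 158.5 CPM in replicate 2 of 20 ng/L. The other 20 ng/L libraries had 0.420 to 1.12 CPM and the solvent libraries 0.0956 to 1.12 CPM. A scaf7 ID at -3.38 had 0.241 to 0.539 CPM at 20 ng/L, against 18.4 CPM in solvent replicate 1 and 0.306 to 0.574 CPM in the other solvent libraries. Each of these changes between 20 ng/L and solvent came from 1 pool. At 100 ng/L the scaf2 ID had 0.697, 164, 0.735, 176 and 173 CPM in replicates 1 to 5, so its high level recurred there. The scaf7 ID had 0.429 to 0.589 CPM at 100 ng/L.

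The exposed pools were no more variable than the solvent pools over most IDs. The median SD between libraries was 0.235 at 20 ng/L and 0.327 in solvent on the log2 CPM scale, and the SD was higher at 20 ng/L for 6400 IDs (29.1%). Without solvent replicate 1 the solvent median was 0.248, and the SD was higher at 20 ng/L for 10063 IDs (45.8%). Much of the difference between the groups went with that library. Without replicate 4 of 20 ng/L, the exposed library farthest from its group, the median at 20 ng/L was 0.190. For the scaf140 set the SD was taken on the CPM scale as a share of the mean, which is not comparable with the log2 SDs above. It was 104% to 119% at 20 ng/L and 23.0% to 53.2% in solvent. At 20 ng/L it leaned on replicate 5, with 832 CPM of scaf140.3 where the others had at most 333.

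**Figure D4:**
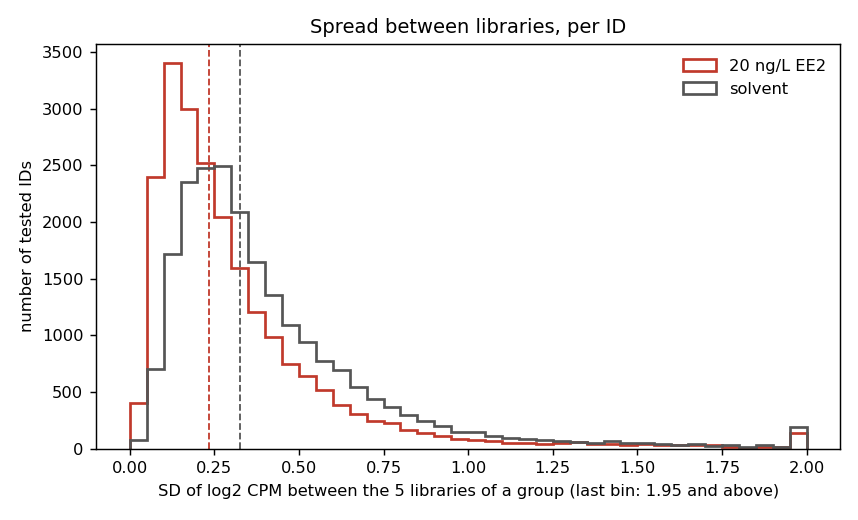
Histogram of the SD of log2 CPM between the 5 libraries of a group, over all tested IDs, for 20 ng/L EE2 (red) and solvent (grey), with dashed lines at the medians of 0.235 and 0.327. The last bin holds all larger values.

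All libraries at 20 ng/L were above all solvent libraries for 29 IDs (0.132%) and below them for 5 IDs (0.0228%). The 29 hold the 11 called IDs and 18 others, whose log2 fold changes ran from 0.12 to 4.97 with a median of 0.55. Of these 18, 4 were beyond 2-fold, the scaf178 ID and 1 each of scaf21, scaf11 and scaf66. The 5 IDs that were lower changed by between -0.89 and -0.16. Some IDs would separate in this way with no change in any ID, so the 18 and the 5 are not read as a response. The total of 34 (0.155% of tested IDs) became 221 of 22194 tested IDs without solvent replicate 1, 151 above and 70 below. Leaving out any other single library gave 62 to 99. How many would separate with no change was not worked out, so none of these totals is read as an excess. A smaller number of libraries is always easier to separate, so the count of 221 is to be read against those 62 to 99.

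**Figure D5:**
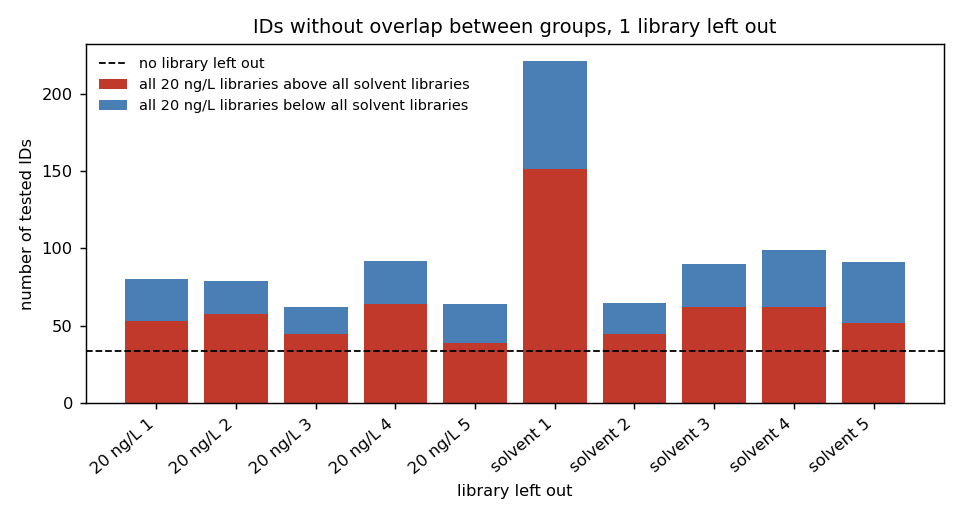
Number of tested IDs whose 20 ng/L EE2 and solvent libraries do not overlap when the library named below the bar is left out, with IDs above solvent in red and below it in blue. The dashed line marks the 34 IDs found with all 10 libraries. The bar without solvent 1 reaches 221 and the other bars 62 to 99.

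The count of calls did not share this dependence on solvent replicate 1. Without it, 11 IDs were called by edgeR, the same ones, and the number at an unadjusted p below 0.05 was 333 in place of 141. The authors' deposited table of this comparison lists 15569 IDs, of which 11 pass an adjusted p of 0.05, all of them among the 11 called here. The log2 fold change in the authors' deposited table was 8.40 for scaf36.44 and 7.64 for scaf140.3, and for the 11 IDs it differed from the fit here by at most 0.30. Beyond 2-fold, the authors' deposited table had 27 IDs that were higher and 17 that were lower.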

How the data were processed

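The 20 ng/L EE2 and solvent columns were taken by their labels from the counts that the authors deposited, 1 whole number for each ID in each library. The submitters' processing notes name Trimmomatic 0.38 with StringTie 1.3.4d and edgeR 3.26.5. Aligner, build, annotation and strand setting: not given in the sources used here. Reads of antisense or overlapping genes may therefore be mixed. Per the labels' protocols, libraries were made from poly(A) RNA with a strand-marking kit. The authors' deposited table of this comparison holds, per the file headers, a log2 fold change and mean log2 CPM, a p-value with its adjusted value, and a signed fold change and an F score. It was used only for comparison.

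The fit used edgeR 4.0.16 (R 4.3.3): filterByExpr (minimum count 10, minimum total 15), TMM scaling and a robust quasi-likelihood fit of group means over all 15 libraries. It was tested on simulated data with independent libraries and the same spread setting for all IDs, which does not show how it behaves on these data. The threshold was a Benjamini-Hochberg adjusted p below 0.05 over 21976 IDs. SEs are the log2 fold change divided by the root of the F statistic, intervals are at 95%, and log2 CPM used a prior count of 2. Alternatives were DESeq2 1.42.0, limma-voom (limma 3.58.1), other scalings and filters, only the 2 groups, the replicate block and each library left out. Plots were made in matplotlib 3.10.9 (Python 3.11.15).

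The groups share replicate numbers, and the deviations of same-numbered libraries from their group means were positively correlated (0.113 to 0.617, all above 0.1). This link comes from the data and not from the labels. Differently numbered libraries were not set beside them, so a pairing by number was not tested. No 2 of the libraries held identical counts. Separate cultures are not stated for the pools, and p-values then reflect only the spread among these samples, which may be technical. The planned list of 26 symbols matched 0 IDs. In the absence of names, the rule for printed IDs took the called ID with the highest CPM of each of the 2 prefixes with most calls and the 2 negative IDs with the lowest p. The samples, rules and lists were chosen with earlier results of these data known.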

Additional observations from a re-analysis of the deposited data

Results flagged for a closer look

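Sets of 5 libraries of 1 group were examined for a single distant library in 42 cases, and 3 cases had one. The rule flags about 1 in 20 sets by chance, a rate that does not hold for IDs picked by their changes. The 3 of 42 are therefore not a comparison with chance. The scaf178 ID just short of a call had 0.198 CPM in solvent replicate 4 and 0 in the other solvent libraries, which the rule always flags. The scaf2 ID had 158.5 CPM in replicate 2 of 20 ng/L where the other 20 ng/L libraries had 0.420 to 1.12. It had 164, 176 and 173 CPM in replicates 2, 4 and 5 at 100 ng/L. The scaf7 ID had 18.4 CPM in solvent replicate 1 where the other solvent libraries had 0.306 to 0.574. These 3 IDs were picked for large or nearly called changes.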

How the results depend on the processing

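The count of 11 IDs at 20 ng/L ranged from 6 with limma-voom to 15 with DESeq2 over the planned settings, with 8 under the replicate block and only the 2 groups compared and 11 to 12 with a library left out. The 11 IDs kept their direction under every alternative run, in 231 values of 1 ID under 1 setting. Of these values 10 missed the threshold, 5 of them by limma-voom. The replicate block over all 15 libraries changed no call among the 11, and it moved the number of IDs at an unadjusted p below 0.05 to 276, against 129 to 333 with a library left out. The change of scaf22.146 was called at -6.45 by DESeq2 and at -6.43 without robust estimation. With a library left out it ranged from -6.76 to -6.28. The number of IDs without overlap between groups ranged from 62 to 221 with a library left out. The median log2 fold change stayed between -0.030 and 0.0013 over the edgeR settings, changing sign with the block. Between 80.5% and 82.5% of IDs had an interval within 2-fold with a library left out. The cause of these differences was not tested. Solvent levels of the scaf36 IDs rest on few counts, which limits how exactly their folds are known.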
